A study of Mus musculus with 3 samples.

Results

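The enzymes that build, lengthen and desaturate fatty acids were followed in NMuMG cells, a mouse mammary epithelial line, with and without a MAFK transgene. The set holds 10 genes, Scd1, Scd2, Fasn, Acaca, Acly, Elovl1, Elovl5, Elovl6, Fads1 and Fads2, and all 10 were measured among the 19935 genes that could be named on the arrays. The pathway was chosen on measured values: Scd1 had already been seen to be much higher in both MAFK clones. The members' values against mock are therefore given as a description, with no test.

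The MAFK cells (n = 2 arrays) were 2 stable clones, clone 4 and clone 10, carrying FLAG-tagged MafK in the pCAGIP vector. The mock cells (n = 1 array) carried the vector alone, and every culture was kept in puromycin. The labels call only the MAFK cells clones, so differences from mock take in any that arose when single cells were grown out, and transgene and cloning cannot be told apart. The values are log2 expression after RMA, which corrects background, equalises the arrays and summarises the probes of each gene region (a probe set). The single mock array has no spread of its own, and SDs given here are between the 2 clones. Each array holds RNA of a whole culture, so fewer expressing cells and less RNA per cell cannot be told apart. The Mafk probe set read 8.74 in clone 4 and 8.59 in clone 10, against 8.49 in mock cells. Where its probes lie relative to the transgene is unknown here, and the reading is no check of the labels. Of 10 epithelial markers, Krt8, Krt18 and Krt19 lay between 10.92 and 13.67 on all arrays. Epcam (5.58), Esrp1 (5.48) and Cldn7 (6.40 to 6.45) lay below the array medians on all 3, and Krt7, Cldn3 and Cldn4 lay between 6.74 and 7.11. Cdh1, the gene of E-cadherin, read 6.85 in clone 4 and 6.64 in clone 10, against 11.35 in mock cells. It was the single epithelial marker that lay 2-fold or more from mock in each clone. The log2 values of the 10 summed to 81.7 in clone 4 and 81.5 in clone 10, against 86.8 in mock cells. Most of that gap was Cdh1 itself (-4.50 and -4.71), and Krt18 was next (-1.03 and -0.87). Krt8 was also lower in both clones (-0.49 and -0.36), while Krt7, Krt19, Cldn3 and Cldn4 lay slightly above mock in both. The part of these differences in the results was not tested.

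In mammalian cells, cytosolic citrate is split by ATP citrate lyase (Acly) into acetyl-CoA, which acetyl-CoA carboxylase (Acaca) turns into malonyl-CoA. Fatty acid synthase (Fasn) joins these units into saturated chains, and the ELOVL enzymes lengthen chains in the endoplasmic reticulum. Stearoyl-CoA desaturases (Scd1, Scd2) place the first double bond in saturated chains, and FADS1 and FADS2 add further double bonds to polyunsaturated ones. The pathway is under the control of the SREBP and LXR transcription factors and is best known in the mammary gland for the lipid of milk.

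Scd1 was the single member that differed widely between MAFK and mock cells. It read 11.25 in clone 4 and 10.83 in clone 10, against 5.59 in mock cells. Both clones stood far above mock, by log2 differences of 5.66 (clone 4) and 5.24 (clone 10), with a gap of 0.43 between the clones. The clones lay at least that far apart in 2.78% of all genes. The mean of the clones was 11.04 ± 0.30 (SD, n = 2), which is 43.7-fold above mock, with 50.7-fold in clone 4 and 37.7-fold in clone 10. Of all genes, only 1 had a larger mean difference above mock. The mock value lay below the median of all probe sets on that array (6.89), a range in which RMA compresses differences, and no detection calls were used. The fold therefore describes these arrays on the RMA scale.

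The other stearoyl-CoA desaturase genes had values close to mock. Scd2, the isoform known for its expression in brain and in many cell lines, read 12.97 in both clones, against 13.01 in mock cells. Scd3 read 6.28 in clone 4 and 6.17 in clone 10, against 6.13 in mock cells, and Scd4 read 6.79 in both clones, against 6.76 in mock cells. The largest difference of these 3 paralogs from mock was 0.15, for Scd3 in clone 4, beside 5.66 for Scd1 in the same clone. Which bases the probes cover, and whether those of one paralog also bind another, was not analysed here.

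**Figure D1:**
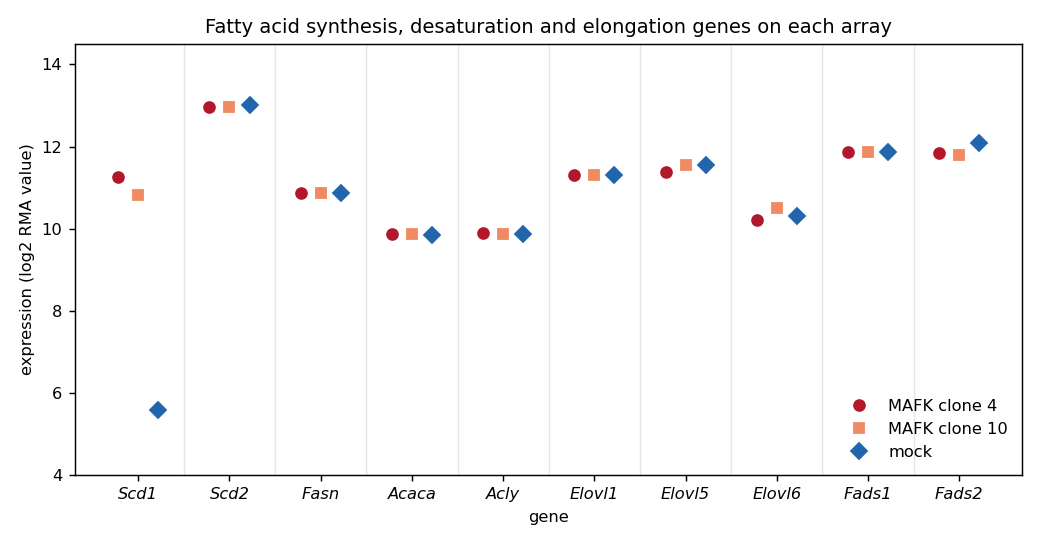
Log2 RMA expression (vertical axis) of each of the 10 genes in MAFK clone 4 (circles), MAFK clone 10 (squares) and mock cells (diamonds), 1 point per array. Scd1 sits at 11.25 and 10.83 in the clones, against 5.59 in mock cells, while the points of the other genes lie close together, with the widest gap, 0.30, between the clones for Elovl6.

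The enzymes that supply and assemble the chain had nearly the same values on all arrays. Acly, which provides cytosolic acetyl-CoA, read 9.89 in clone 4 and 9.88 in clone 10, against 9.88 in mock cells. Acaca, which catalyses the committed step, read 9.87 in both clones, against 9.85 in mock cells. Its second probe set read 8.57 on all 3 arrays. Fasn read 10.87 on all 3 arrays. For these 3 genes the log2 differences from mock thus ran from 0 to 0.02.

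Among the elongases, Elovl1, which acts on saturated and monounsaturated very long chains, read 11.30 on all 3 arrays. Elovl5, an elongase of polyunsaturated chains, read 11.39 in clone 4 and 11.54 in clone 10, against 11.54 in mock cells, so that clone 4 alone lay lower (difference -0.16). Elovl6, which lengthens palmitate to stearate, the substrate of the desaturases, read 10.21 in clone 4 and 10.51 in clone 10, against 10.32 in mock cells. For Elovl6 the clones stood on opposite sides of mock (-0.11 and 0.19), and the distance between them, 0.30, exceeded either difference from mock. Clones lay at least that far apart in 4.81% of all genes.

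The polyunsaturated chain desaturases differed little as well. Fads1, the delta-5 desaturase gene, read 11.87 in clone 4 and 11.86 in clone 10, against 11.86 in mock cells. Fads2, the delta-6 desaturase gene, read 11.84 in clone 4 and 11.79 in clone 10, against 12.09 in mock cells. Fads2 was lower in both clones (log2 differences -0.24 and -0.29), which was the largest difference among the 9 members other than Scd1 and amounts to 1.21-fold on the mean of the clones.

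Over the set, 1 of 10 members was at least 2-fold higher in both clones, where 1.19% of all genes were, and none was at least 2-fold lower, where 1.81% of all genes were. Since Scd1 led to the choice of the pathway, nothing is read from the first count. The other 9 members were all within 0.295 of mock in both clones, and 79.7% of all genes lay within that range. The median difference of the members was 0 in each clone, as it was over all genes. Fasn and Elovl1 had the same value on all 3 arrays, and Scd2 and Acaca had equal values in the 2 clones. Median polish, a step of RMA, can return such ties on few arrays, and 55.5% of all genes had equal values in the clones. Values were taken as equal where they differed by less than 1e-08.

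**Figure D2:**
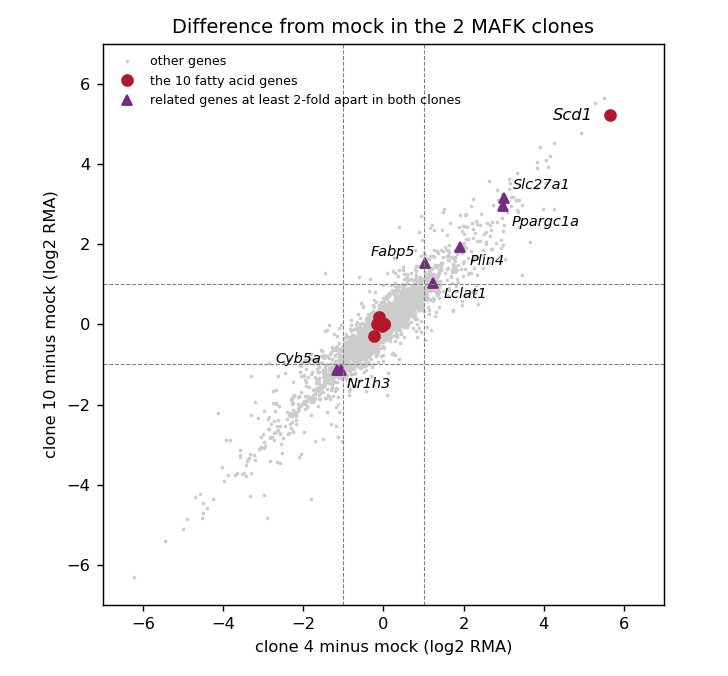
Difference from mock in clone 4 (horizontal axis) and clone 10 (vertical axis), in log2 RMA units, for all 19935 genes (grey), the 10 fatty acid genes (circles) and related lipid genes that lay 2-fold or more from mock in each clone (triangles). Dashed lines mark 2-fold. Scd1 lies at 5.66 and 5.24, and the other 9 circles lie within 0.295 of 0 on both axes.

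The genes nearest to Scd1 in their 2 differences from mock, by Euclidean distance over clone 4 and clone 10, were Gpnmb (distance 0.44), Fscn1 (0.47), Aqp1 (0.87), Adgre5 (1.57) and F2r (1.83). None of these 5 encodes an enzyme of fatty acid synthesis. With 3 arrays this measure only says that the sizes were alike.

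Genes next to Scd1 on chromosome 19 had values close to mock. In the order of the GRCm38.p6 gene table, the 3 measured genes before Scd1 are Scd3, Scd2 and Scd4, and the 3 after it are Wnt8b, Sec31b and Ndufb8. Wnt8b, which encodes a WNT ligand, was 0.22 above mock in both clones (limma adjusted p = 0.293). Ndufb8, which encodes a subunit of respiratory complex I, was 0.12 above mock in both (limma adjusted p = 0.599), and Sec31b was 0 and 0.07 above it. Around Fads1, Fads3, a desaturase-like gene, lay 0.38 above mock in clone 4 and 0.19 in clone 10 (limma adjusted p = 0.410), and Rab3il1 lay 0.13 and 0.35 above it. On the other side Fen1, the flap endonuclease gene, read 8.92 in clone 4 and 8.88 in clone 10, against 8.92 in mock cells, and Tmem258 read 8.02 on all 3 arrays. The next gene, Myrf, which encodes a membrane-bound transcription factor known from myelination, read 9.52 in clone 4 and 8.32 in clone 10, against 11.22 in mock cells. Myrf was lower in both clones (-1.70 and -2.90), but the clones were far apart and it did not pass the test (limma adjusted p = 0.242).

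**Figure D3:**
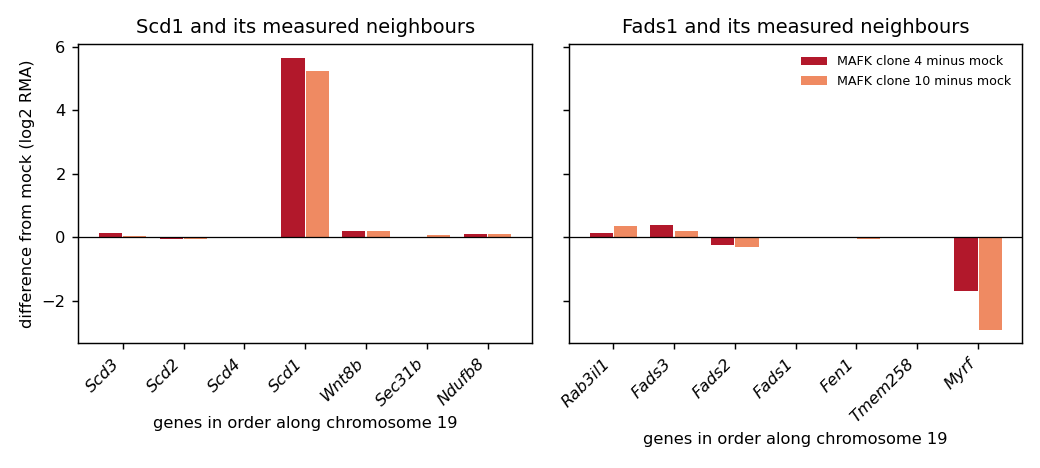
Difference from mock (log2 RMA, vertical axis) in MAFK clone 4 (dark bars) and MAFK clone 10 (light bars) for Scd1 and Fads1, each with the 3 measured genes on either side in their order along chromosome 19. Scd1 stands at 5.66 and 5.24 among neighbours within 0.22 of 0, and Myrf, beyond Tmem258, stands at -1.70 and -2.90.

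For the genes outside the set, a gene is said to have risen or fallen if each clone differed from mock by 2-fold or more in one direction and the gene passed limma (two-sided moderated test, Benjamini-Hochberg adjusted p under 0.05 over all genes). By this rule 0.401% of all genes rose and 0.762% fell. Of 153 genes in 9 related lists of lipid metabolism, 146 were measured, 3 rose (2.05%) and 1 fell (0.685%). The 3 that rose were the fatty acid transporter gene Slc27a1, the coactivator gene Ppargc1a and the perilipin gene Plin4, and the nuclear receptor gene Nr1h3 fell. The share that fell was close to that of all genes, and the share that rose rests on 3 genes. Of all 146 genes, 50 exceeded mock in both clones and 28 were lower in both, where 33.7% and 17.9% of all genes did so. Another 43 had equal values on all arrays, where 34.3% of all genes did, and the median difference of the 146 was 0 in each clone.

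Genes of fatty acid uptake and binding included the largest difference in these lists. Of 18 measured members, 1 rose and none fell, with median differences of 0.0050 in clone 4 and 0.0026 in clone 10. Slc27a1, which encodes a fatty acid transport protein with acyl-CoA synthetase activity, read 11.22 in clone 4 and 11.35 in clone 10, against 8.20 in mock cells. It rose 8.47-fold (log2 difference 3.08 ± 0.10, SE, limma adjusted p = 0.0293), both clones lying far above mock. Slc27a1 lies on chromosome 8, whose 955 genes had mean differences of 0.12 in each clone. Their part in this result was not tested. Fabp5, a cytosolic fatty acid binding protein gene, read 10.77 in clone 4 and 11.28 in clone 10, against 9.75 in mock cells, and did not pass (limma adjusted p = 0.186). Cd36, the gene of a fatty acid translocase, read 5.10 on all 3 arrays.

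Among 24 measured regulators of lipogenesis, 1 rose and 1 fell, with a median difference of 0 in each clone. Ppargc1a, a transcriptional coactivator known for mitochondrial biogenesis and oxidative metabolism, read 10.62 in clone 4 and 10.59 in clone 10, against 7.65 in mock cells. It rose 7.78-fold (log2 difference 2.96 ± 0.07, SE, limma adjusted p = 0.0256). Nr1h3, which encodes the oxysterol receptor LXR alpha, an activator of Srebf1 and Scd1 in liver, read 6.69 in clone 4 and 6.72 in clone 10, against 7.85 in mock cells. It fell by 1.14 ± 0.07 (SE) on the log2 scale and only just passed (limma adjusted p = 0.0499). Its values in the clones lay below the array medians (6.92 and 6.93), with the same limit as for Scd1. Over the alternatives that adjusted the p its value ran from 0.0197 to 0.0547. The last came with probe sets averaged over all genes and ended the call. The difference of Nr1h3 itself was unchanged there (-1.14). Srebf1, the SREBP gene that drives lipogenesis, read 9.38 on all 3 arrays. Srebf2, the SREBP gene tied to cholesterol synthesis, was 0.24 and 0.19 above mock (limma adjusted p = 0.333), and Insig1, which retains SREBP in the endoplasmic reticulum, lay below it (-0.13 and -0.35, limma adjusted p = 0.573). The carbohydrate response factor gene Mlxipl (6.90) and the adipogenic receptor gene Pparg (6.48) each had the same value on all arrays.

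In the list of 18 lipid droplet and lipolysis genes, 1 rose and none fell, with a median difference of 0 in each clone. Plin4, which encodes a perilipin that coats nascent lipid droplets, read 8.32 in clone 4 and 8.33 in clone 10, against 6.40 in mock cells. It rose 3.79-fold (log2 difference 1.92 ± 0.07, SE, limma adjusted p = 0.0311). The mock value, like that of Scd1, lay below its array's median, so this fold too describes the RMA scale. Plin2, the perilipin found on droplets of most cells, read 10.47 in clone 4 and 10.88 in clone 10, against 10.82 in mock cells, with the clones on opposite sides. Plin4 is also 1 of 9 measured adipocyte markers, and no other of these was at least 2-fold apart. The adipocyte genes Adipoq (5.44), Fabp4 (5.21) and Cidec (6.84) had the same value on all 3 arrays, and 7 of the 9 lay below the array medians on each. The log2 values of the 9 summed to 58.9 in clone 4 and 59.1 in clone 10, against 56.7 in mock cells. Plin4 alone made up 1.92 (clone 4) and 1.93 (clone 10) of that gap. None of 7 measured markers of milk-secreting cells was 2-fold apart, and all 7 lay below the array medians on each array, with sums of 38.9 in each clone, against 38.7 in mock cells. Of 7 fibroblast markers Dcn alone was 2-fold apart, lower in both clones without passing. Col1a1, Col1a2, Col3a1 and Thy1 lay above mock in both clones, Pdgfra lay below it in both, and Lum was equal. Their log2 values summed, with Dcn, to 46.7 in clone 4 and 46.8 in clone 10, against 47.4 in mock cells. None of 7 macrophage markers was 2-fold apart.

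Partners of the synthesis, elongation and desaturation enzymes had no member that passed the test. Of 9 desaturase paralogs and cofactors, Cyb5a, which encodes the cytochrome that hands electrons to desaturases, was 2-fold lower in both clones without passing. It read 10.57 in clone 4 and 10.50 in clone 10, against 11.64 in mock cells (limma adjusted p = 0.0591). Over the alternatives that adjusted the p its value ran from 0.0240 to 0.0640, and it passed under 4 of them. Of 14 other synthesis and carbon supply genes, none was 2-fold apart in both clones. Me1, the cytosolic malic enzyme that yields NADPH, came close at -0.96 in clone 4 and -1.07 in clone 10 (limma adjusted p = 0.0712), while Acss2, which makes acetyl-CoA from acetate, was 0.82 above mock in both (limma adjusted p = 0.0706). Acacb, the mitochondrial carboxylase gene, read 6.90 in clone 4 and 6.92 in clone 10, against 6.90 in mock cells, and Thrsp, a lipogenic regulator in liver, was 0.18 and 0.13 above mock (limma adjusted p = 0.494). Of 10 other elongation genes, Elovl7, an elongase of saturated long chains, read 8.59 in clone 4 and 7.81 in clone 10, against 9.36 in mock cells, and was 2-fold lower in clone 10 alone (limma adjusted p = 0.332). The median difference of these lists was 0.05 in clone 4 and 0.04 in clone 10 for the desaturase list, and 0 in each clone for the other 2.

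In the lists on the use of fatty acids, no gene rose or fell among 8 acyl-CoA synthetase genes, 22 genes of glycerolipid assembly and 23 of beta-oxidation. Lclat1, which encodes an acyltransferase that remodels cardiolipin, was at least 2-fold higher in both clones without passing, at 10.50 in clone 4 and 10.28 in clone 10, against 9.26 in mock cells (limma adjusted p = 0.0968). The beta-oxidation genes had median differences of 0 in clone 4 and 0.10 in clone 10 and a largest mean difference of 0.39. Cpt1a, which admits fatty acids to mitochondria, read 10.05 in clone 4 and 10.22 in clone 10, against 10.22 in mock cells.

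**Figure D4:**
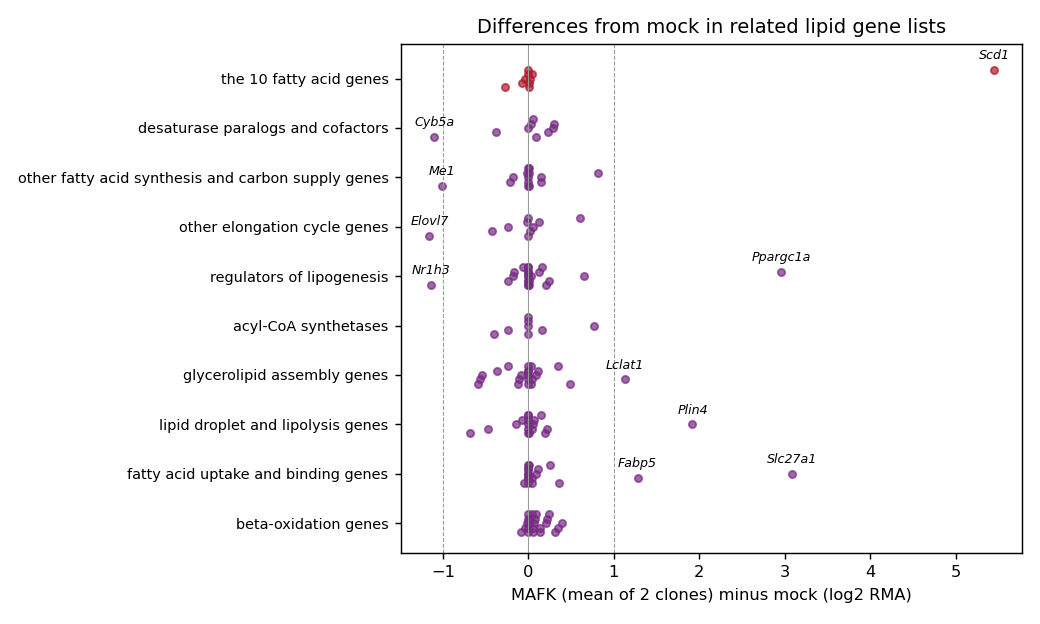
Mean difference of the 2 MAFK clones from mock (horizontal axis, log2 RMA) for the 10 fatty acid genes and each gene of the 9 related lists, 1 point per gene. Dashed lines mark 2-fold. Most points lie between the dashed lines, and Scd1 (5.45), Slc27a1 (3.08), Ppargc1a (2.96) and Plin4 (1.92) stand apart on the right.

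Promoter windows from RefSeq (GRCm38.p6, 250 bases before to 50 after the annotated start) were at hand for 7 of the 10 members (not Scd1, Scd2 and Fads1), in 8 windows. The windows were searched on both strands for TGCTGAC, the half-site of MAF proteins, for TCACNCCAC, a core SREBP site, for ATTGG, the CCAAT box bound by NF-Y, and for CACGTG, an E-box. These letters were chosen with the expression values known. Over all 32851 windows, 4.67% held the MAF half-site, 1.24% the SREBP core, 37.4% the CCAAT box and 7.15% the E-box. No member window, and no window of Slc27a1, Ppargc1a, Plin4 or Nr1h3, held the MAF half-site or the SREBP core in these letters. Among members, the windows of Fasn, Acly and Elovl5 held a CCAAT box, as did a window of Elovl1 but not its other. The Elovl5 window also held an E-box (at -161). The windows of Acaca, Elovl6 and Fads2 held neither. The window of Plin4 and some but not all windows of Slc27a1 held a CCAAT box. A window of Slc27a1 also held an E-box (at -202), and the windows of Ppargc1a and Nr1h3 held neither. Shown here are Fasn, whose value was equal on all arrays, and the 2 genes of the related lists that rose and have a single window, with CCAAT boxes of either strand in capitals.
Fasn, chr11:120824498-120824797, minus strand: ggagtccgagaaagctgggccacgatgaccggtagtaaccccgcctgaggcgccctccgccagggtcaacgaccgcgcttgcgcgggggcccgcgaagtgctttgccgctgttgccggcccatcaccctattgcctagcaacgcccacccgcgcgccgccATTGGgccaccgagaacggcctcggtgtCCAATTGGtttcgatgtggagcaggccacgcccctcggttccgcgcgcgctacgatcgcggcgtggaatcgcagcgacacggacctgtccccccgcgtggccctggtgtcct
Ppargc1a, chr5:51567676-51567975, minus strand: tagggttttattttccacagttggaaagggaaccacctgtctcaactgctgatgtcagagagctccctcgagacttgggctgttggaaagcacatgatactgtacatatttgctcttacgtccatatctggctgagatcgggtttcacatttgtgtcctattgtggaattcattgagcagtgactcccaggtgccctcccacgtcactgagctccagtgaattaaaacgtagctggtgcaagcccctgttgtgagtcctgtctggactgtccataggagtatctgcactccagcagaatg
Plin4, chr17:56109733-56110032, minus strand: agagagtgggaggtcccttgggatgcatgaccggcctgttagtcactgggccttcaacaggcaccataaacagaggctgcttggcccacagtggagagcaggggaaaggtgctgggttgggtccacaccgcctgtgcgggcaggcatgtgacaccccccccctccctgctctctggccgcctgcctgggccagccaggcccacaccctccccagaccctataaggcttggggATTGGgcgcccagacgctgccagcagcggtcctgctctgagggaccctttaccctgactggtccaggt
The Fasn window holds 3 CCAAT boxes, at -90, -62 and -59 from the start, of which the last 2 overlap on opposite strands. The Plin4 window holds 1, at -18, and the Ppargc1a window none. A match is a description of letters and not a bound site.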

How the data were processed

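Expression was measured on 3 Affymetrix arrays, 2 of MAFK clones and 1 of mock cells. The authors deposited log2 values, and the submitters' processing notes name RMA with no version. Filters and a genome build are not given in the sources used here. The values ran from 4.40 to 14.3, with array medians of 6.92 (clone 4), 6.93 (clone 10) and 6.89 (mock), and the number of arrays limits their precision. Of 28815 probe sets, 21780 had 1 gene symbol in the platform annotation and were used, 1605 had several and 5430 had none. A GRCm38.p6 gene table gave current symbols for 21689 of them by Entrez identifier. Each gene was represented by its probe set of highest mean. The members and lists were chosen with earlier results of these data known.

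Differences are MAFK minus mock, and fold is 2 to the power of a difference. The test was limma 3.58.1 in R 4.3.3 on all 19935 genes, with 1 residual degree of freedom and mock assumed to vary as the clones do. P-values thus rest only on the spread between 2 clones, in the gene itself and, through limma's prior variance, in other genes. The prior (1.93 degrees of freedom, SD 0.0694) came from the 8873 genes whose clones differed, because 55.5% had equal clone values, and was applied to all. Genes with equal clones had a variance of 0 and the smallest standard error (0.0690), which favoured passing. The SEs of Ppargc1a (0.0704), Nr1h3 (0.0702) and Plin4 (0.0691) lay close to that value, so they reflect mainly the prior. A p of 1 was set where the difference was 0. Named genes were all members, related genes that lay 2-fold or more from mock in each clone, 14 genes named by rule whatever their values (among them Srebf1, Scd3 and Cpt1a), the 5 genes nearest Scd1 and 3 neighbours on each side of Scd1 and Fads1. Acss2, Me1 and single markers were named with their values known. Alternatives were 2 other scalings, averaged probe sets, a filter on low genes, a 1.5-fold threshold, 2 other priors, an unadjusted p and each clone left out.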

Additional observations from a re-analysis of the deposited data

How the results depend on the processing

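Scd1, the 1 member 2-fold or more from mock in both clones, lay so far past that threshold that its count says nothing about stability. The members' median difference, 0.001, was 0.013 after a second quantile normalization, -0.034 with equal array medians and 0 with either clone left out, so a sign of differences this small depends on the scaling. At 1.5-fold, 507 genes were higher and 723 lower in both clones, against 237 and 361 at 2-fold. The counts of genes that rose or fell, 80 and 152, were 147 and 292 with equal array medians. That scaling broke the ties between clones, so the prior came from all 19935 genes (SD 0.00505), against 8873 (SD 0.0694) in the main fit. After a second quantile normalization it came from 19324 genes (SD 0.0056), with counts of 66 and 159. The part of the prior in these counts was not tested. The counts were 128 and 232 with the prior from all genes and 142 and 256 with an intensity trend. With an unadjusted p they were 231 and 349. All 232 genes called were also called with the prior from all genes. The 4 related genes that rose or fell became 7 with an unadjusted p. Among desaturase cofactors 1 gene, Cyb5a, was called with a second quantile normalization, equal medians, either other prior or an unadjusted p. Its difference ran only from -1.09 to -1.14 in these settings. The 4 that adjusted the p each had a prior SD of 0.0227 or less, against 0.0694 in the main fit. An unadjusted p gave 1 gene of glycerolipid assembly and 2 of uptake and binding, and averaged probe sets left 1 regulator. No test with a clone left out was possible, since no residual degree of freedom would remain.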
